A study of Mus musculus with 16 samples.

Results

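The loss of Nr4a1 was followed here as 1 effect over both fat depots of young mice. Nr4a1 knockout (KO) and wild-type (WT) adipose progenitors were compared across all genes with depot held constant in an additive model, so that each gene received 1 genotype coefficient from 8 KO and 8 WT libraries. Of 38720 genes in the count table, 16842 passed a filter on low counts, and these are the genes described. Adipose progenitors, the stromal cells of fat that give rise to adipocytes, came from subcutaneous (SAT) and visceral (VAT) fat of 4-week mice. All mice are labelled with the strain C57BL/6J, and the KO genotype is given as B6;129S2-Nr4a1tm1Jmi/J, with 4 libraries for each genotype in each depot. The column names carry the word MACS. Sex, litter, day of preparation, hour of collection and sort markers are not stated in the labels, so genotype cannot be told apart from strain background, litter or preparation day. The replicates are numbered but no label says that they are separate animals, so the p-values measure the spread between these samples, which may be technical.

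Nr4a1 (Nur77) is an orphan nuclear receptor of the NR4A family and an immediate early gene, switched on within minutes by growth factors, stress and cell handling. It binds DNA as a monomer at the NBRE, an extended nuclear receptor site. Adipose progenitors rest for most of their life, and re-enter the cell cycle while fat depots grow in young animals. Mitotic genes are transcribed late in the cycle through a promoter element called the CHR, together with CCAAT boxes, under MuvB complexes with B-Myb and Foxm1, while S phase genes are driven by E2F factors earlier.

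Assigned counts ranged from 34655519 to 55551845 per library. WT SAT replicate 3 stood apart: after depot means were removed, its score on the first principal component (20% of variance) was -65. The other WT libraries lay between -29.7 and -1.6 and the KO libraries between 9.6 and 22.4. The mean correlation of WT SAT replicate 3 with its own group was 0.976, the lowest of a range reaching 0.990. Leaving it out gave 749 higher and 639 lower genes, in place of the 664 and 484 given below, of which 605 and 454 were among them. On the second component (17.4% of variance) the lowest score was that of KO VAT replicate 4, at -53.1. Progenitor markers were abundant: the 10 markers (Pdgfra, Ly6a, Cd34, Pdgfrb, Dlk1, Dpp4, Pi16, Icam1, Col1a1 and Dcn) summed to 51800 to 67000 counts per 1000000 (CPM, after TMM scaling) in SAT libraries and 21300 to 24700 in VAT libraries.

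Nr4a1 itself fell in every KO library. In SAT its level was 1210, 1120, 1020 and 997 CPM in WT and 202, 209, 195 and 199 CPM in KO, and in VAT it was 1650, 1430, 1480 and 1580 CPM in WT and 297, 327, 303 and 307 CPM in KO. The groups did not overlap in either depot, and reads at the gene (chr15:101254269-101274795, plus strand, mm10) remained in KO. The averaged log2 fold change was -2.37 ± 0.06 (SE, as for each log2 change here; edgeR quasi-likelihood adjusted p = 1.33e-14). The other members of the receptor family were not called: Nr4a2 gave 0.17 ± 0.11 (adjusted p = 0.403) and Nr4a3 0.07 ± 0.13 (adjusted p = 0.822). Both were negative in SAT (-0.13 and -0.12) and positive in VAT (0.47 and 0.25).

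Averaged over the depots, 1148 genes changed at an adjusted p under 0.05, or 6.82% of those tested: 664 rose in KO (3.94%) and 484 fell (2.87%). Upper-quartile scaling, which moved the median of all genes from -0.01 to 0.02, gave 815 higher and 347 lower. The rises were larger, with 230 genes at least 2-fold higher and 32 at least 2-fold lower. Among genes of at least 5 CPM that met the definition of shared below, the 322 higher ones had a median log2 change of 0.41 (5th to 95th percentile 0.20 to 1.48) and the 441 lower ones -0.33 (-0.88 to -0.17). Leaving out each library in turn, 712 of the 1148 genes (62%) kept their call in all 16 fits.

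A gene was taken as shared when it was called on average, had the same sign in both depots, and had an adjusted interaction p of at least 0.05. There were 1135 such genes, 651 higher and 484 lower, of which 1063 were protein-coding. For 283 that rose and 193 that fell, KO and WT libraries did not overlap in SAT nor in VAT, a separation found in that direction in 1.72% and 1.24% of all tested genes. Same sign in both depots held for 1146 of the 1148 called genes, which the averaging itself favours, and for 52.2% of all tested genes. Across all 16842 genes the KO effects in SAT and VAT correlated weakly (Pearson 0.245, Spearman 0.122), and genes are not independent replicates. In a model with 1 coefficient per group, fitted to all libraries, the SAT contrast called 988 genes (5.87%) and the VAT contrast 680 (4.04%). Of these, 264 were called in both in the same direction. Fits to the libraries of 1 depot called 359 genes higher and 141 lower in SAT, and 499 higher and 192 lower in VAT. The interaction was called in 45 genes (0.267%), 32 of which had opposite signs in the depots and no call on average. Without KO VAT replicate 3 it was called in 147, including 17 of the 1135 shared genes, and in the other fits leaving out 1 library it was called in 7 to 66.

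**Figure D1:**
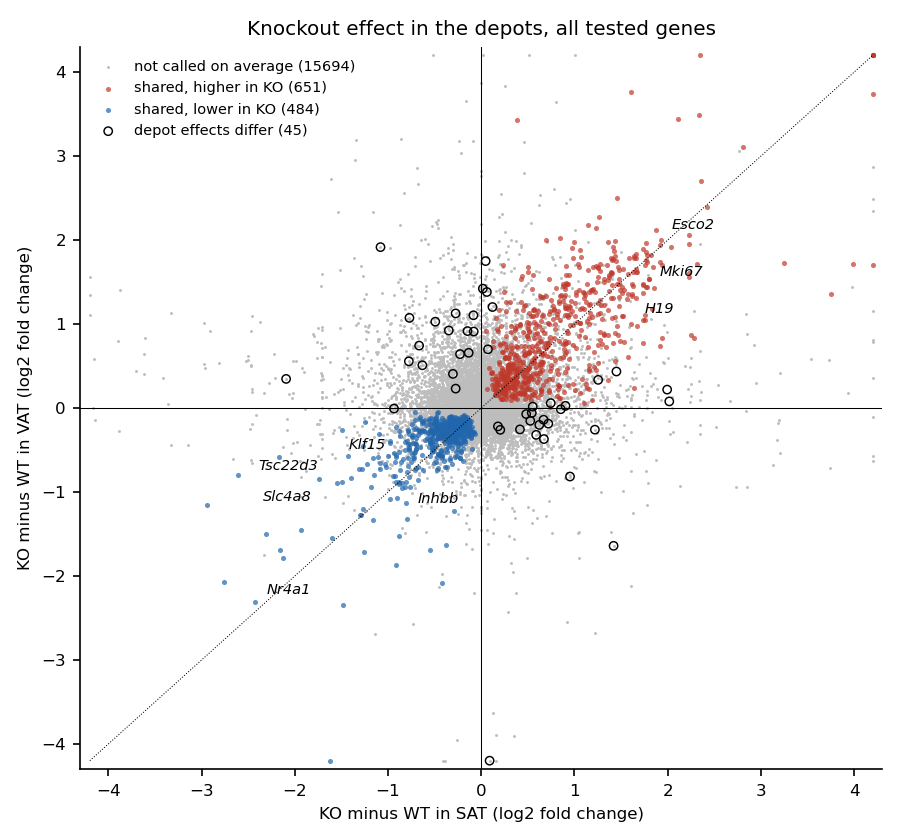
Log2 KO effect in SAT (x axis) against VAT (y axis) for the 16842 tested genes, except the 2 called genes of opposite sign, which are not drawn. The 1135 shared genes are coloured by direction, genes not called are grey, and the 45 genes with a called interaction are ringed. The axes end at 4.2, and 29 genes beyond them are placed at the edge. Of the 1148 called genes, 1146 lie in the quadrants of equal sign, while all genes together form a wide cloud (Pearson 0.245).

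Under the rule given next, the largest rises were of genes that act in mitosis. Outside it some genes rose further, such as Gm15446, a predicted gene at a mean of 3.82 CPM, by 6.52 ± 0.22. Among shared protein-coding genes of at least 5 CPM whose libraries separated in both depots, the 10 largest rises were Pbk, Iqgap3, Mki67, Cenpf, Ckap2l, Top2a, Ckap2, Prc1, Ccna2 and Kif23. Mki67, the nuclear protein stained as Ki-67 in dividing cells, measured 7.26, 5.64, 7.04 and 9.01 CPM in WT SAT and 21.6, 25.2, 22 and 30.4 CPM in KO SAT. In VAT it measured 11.3, 9.29, 7.87 and 9.43 CPM in WT and 33.9, 26.6, 34.3 and 38.9 CPM in KO. Every KO library lay above every WT library, and the averaged change was 1.80 ± 0.11 (edgeR adjusted p = 1.04e-08), with 1.78 in SAT and 1.82 in VAT.

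The 10 largest falls under the same rule were Nr4a1, Slc4a8, Tsc22d3, Inmt, Galnt15, Nmb, Rasl10b, Prg4, Ddit4 and Fam107a. Galnt15, of the enzyme family that starts O-linked glycans, measured 240 to 299 CPM in WT SAT and 112 to 172 in KO SAT. In VAT it measured 248 to 278 CPM in WT and 109 to 143 in KO, without overlap in either depot, and fell by 1.03 ± 0.09 on the log2 scale (edgeR adjusted p = 6.41e-07). Inmt, a methyltransferase of small amines, fell by 1.06 ± 0.14, and Prg4, the lubricating proteoglycan lubricin, by 0.99 ± 0.11. Slc4a8, a sodium-driven bicarbonate transporter, fell by 1.18 ± 0.13. It lies on the same chromosome as Nr4a1, and its neighbourhood is described below.

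**Figure D2:**
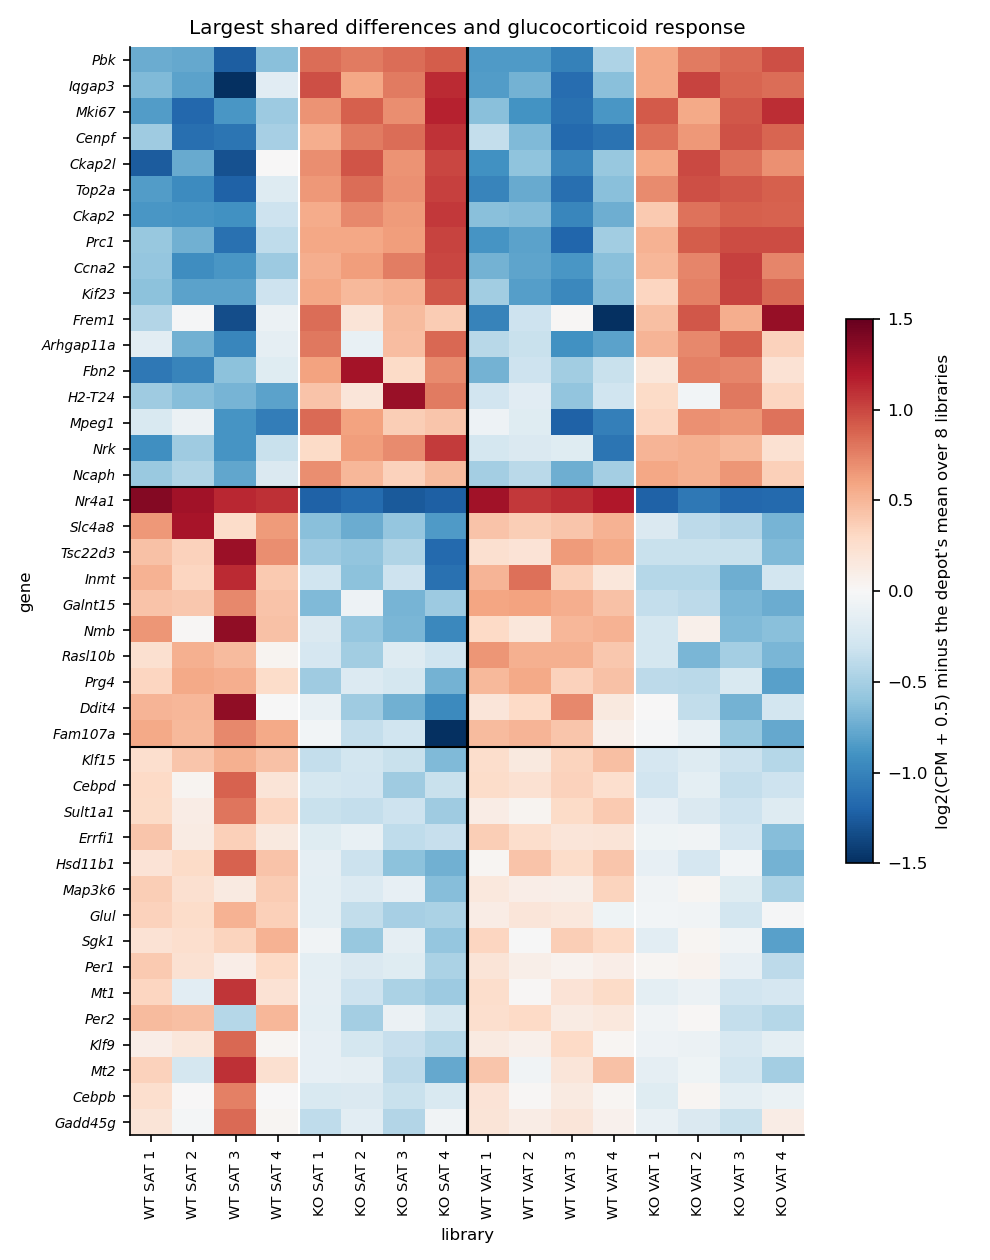
Heat map of 42 genes (rows) in the 16 libraries (columns), coloured by log2(CPM + 0.5) minus the mean of the depot, with the colour scale ending at 1.5 either way. The 17 genes above the first line rose by the rules for largest rises and the 10 below it are the largest falls. The 15 at the bottom are the called glucocorticoid response genes not already shown above. The rules for rises and falls required no overlap of KO and WT in either depot, and the bottom block holds called genes only. Separation of the genotypes in the figure therefore follows from the choice of genes.

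The list of G2/M and mitosis genes changed almost whole. Of its 48 tested members 47 rose and 0 fell, against 3.94% of all genes higher, and 46 were separated in both depots. Their median log2 change was 1.48 (1.46 in SAT, 1.54 in VAT), where the median of all tested genes was -0.01. Top2a, the topoisomerase that untangles chromosomes before they part, measured 8.61 to 17.9 (WT) against 32.5 to 42.5 (KO) CPM in SAT, and 10.7 to 15.4 (WT) against 39.8 to 47.7 (KO) CPM in VAT. Cdk1, the kinase that drives entry into mitosis, rose from 2.92 to 3.84 CPM in WT SAT and 4.07 to 5.11 in WT VAT to 7.05 to 9.97 and 11 to 15 in KO. Its averaged change was 1.46 ± 0.10 (edgeR adjusted p = 1.01e-07). The member without a call was Pttg1, securin, the anaphase inhibitor, at 0.04 ± 0.08 (adjusted p = 0.847), with 24.3 to 37.3 CPM in WT and 25.9 to 32.7 in KO over both depots. The list kept 47 calls in each of the 16 fits leaving out 1 library. In bulk RNA a higher share of cells in mitosis and more mitotic RNA per cell cannot be told apart.

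RefSeq promoter windows (GRCm38.p6, 250 bases before to 50 after the start) were held for 40 of the 48 genes. The CHR, searched as TTTGAA on either strand, was present in 31 of 40 (77.5%) and CCAAT in 31 of 40 (77.5%), where 18.1% and 37.9% of 27025 RefSeq windows held them. Both were in 27 of 40 (67.5%), and in 7.12% of all windows. The promoter of Mki67, the candidate member of smallest p that held both, is printed from RefSeq (chr7:135716380-135716629, minus strand, 5′ to 3′, ending at the base before the start), with CCAAT, its reverse ATTGG and TTTGAA in capitals. Genes of a chromosome kept out of the choice of printed promoters were not candidates.
Mki67: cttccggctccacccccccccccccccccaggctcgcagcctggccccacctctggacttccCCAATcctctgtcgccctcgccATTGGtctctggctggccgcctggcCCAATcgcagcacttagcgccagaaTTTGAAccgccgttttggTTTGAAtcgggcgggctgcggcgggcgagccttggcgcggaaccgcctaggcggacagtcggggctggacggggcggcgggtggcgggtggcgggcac
It held 3 CCAAT matches, their first bases 188, 166 and 141 bases before the start, and 2 CHR matches downstream of them, at 116 and 98 bases. These matches are descriptions of the letters, and no binding was measured.

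DNA replication genes rose in smaller steps. Of 45 members of the S phase list 31 rose and 0 fell, against 3.94% of all genes higher. In both depots 20 were separated upward, against 1.72% of all genes, and the median log2 change was 0.51. Uhrf1, which carries DNA methylation through replication, rose by 1.27 ± 0.10, from 3.09 to 4.69 CPM in WT SAT and 5.77 to 6.69 in WT VAT to 6.73 to 9.98 and 14.3 to 18.4 in KO. Rrm2, the ribonucleotide reductase subunit that limits nucleotide supply, rose by 1.14 ± 0.11, and Mcm5, a subunit of the replicative helicase, by 0.76 ± 0.12. Pcna, the sliding clamp of the polymerase, was not called: it gave 0.12 ± 0.05 (edgeR adjusted p = 0.239), with 34.4 to 47.9 CPM in WT and 35.8 to 50.9 in KO. An E2F site (TTTGGCGC or TTTCCCGC, either strand) was in 12 of the 36 windows held (33.3%), in 3 of 40 G2/M windows (7.5%) and in 1.63% of all windows, while the CHR was in 5 of 36 (13.9%). Over SAT libraries alone 12 of the S phase genes were called and over VAT libraries alone 32.

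Regulators of the cycle were mixed. Of 27 members 8 rose and 1 fell (2 without WT SAT replicate 3), with a median of 0.17. Foxm1, the transcription factor of late cell cycle genes, measured 2.6 to 5.47 (WT) against 7.51 to 10.1 (KO) CPM in SAT, and 4.31 to 5.2 (WT) against 9.21 to 12.8 (KO) CPM in VAT, without overlap, and rose by 1.14 ± 0.12. The E2F repressors and activators E2f8 and E2f2 rose by 1.67 ± 0.23 and 1.29 ± 0.17, at under 5 CPM in every library. Rbl1, the pocket protein p107, rose by 0.60 ± 0.07, Mybl2, B-Myb, by 0.72 ± 0.18 and Ccnd1, cyclin D1, by 0.40 ± 0.09. The member that fell was Myc, the growth factor-induced transcription factor, at -0.35 ± 0.07 (edgeR adjusted p = 0.00704). It measured 187 to 240 CPM in WT and 124 to 191 in KO over both depots, so that groups overlapped in SAT and not in VAT.

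Of 32 genes of sister chromatid cohesion, checkpoints and Fanconi repair 16 rose and 0 fell, with a median of 0.33, while 5 rose over SAT libraries alone, 6 over VAT libraries alone, and 1 fell without WT SAT replicate 3. Fancd2, the central protein of the Fanconi pathway, rose by 0.88 ± 0.22 and Chek1, the replication checkpoint kinase, by 0.68 ± 0.12. Only 9 of 26 replication-dependent histone genes passed the filter, and 1 of the 9 rose, with 4 rising without WT SAT replicate 3 and 2 without KO VAT replicate 1. Over these 5 cell cycle lists together 103 of 161 tested genes rose and 1 fell. They held 61 of the 230 genes that rose at least 2-fold, and all lists used here together held 70 of the 230.

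**Figure D3:**
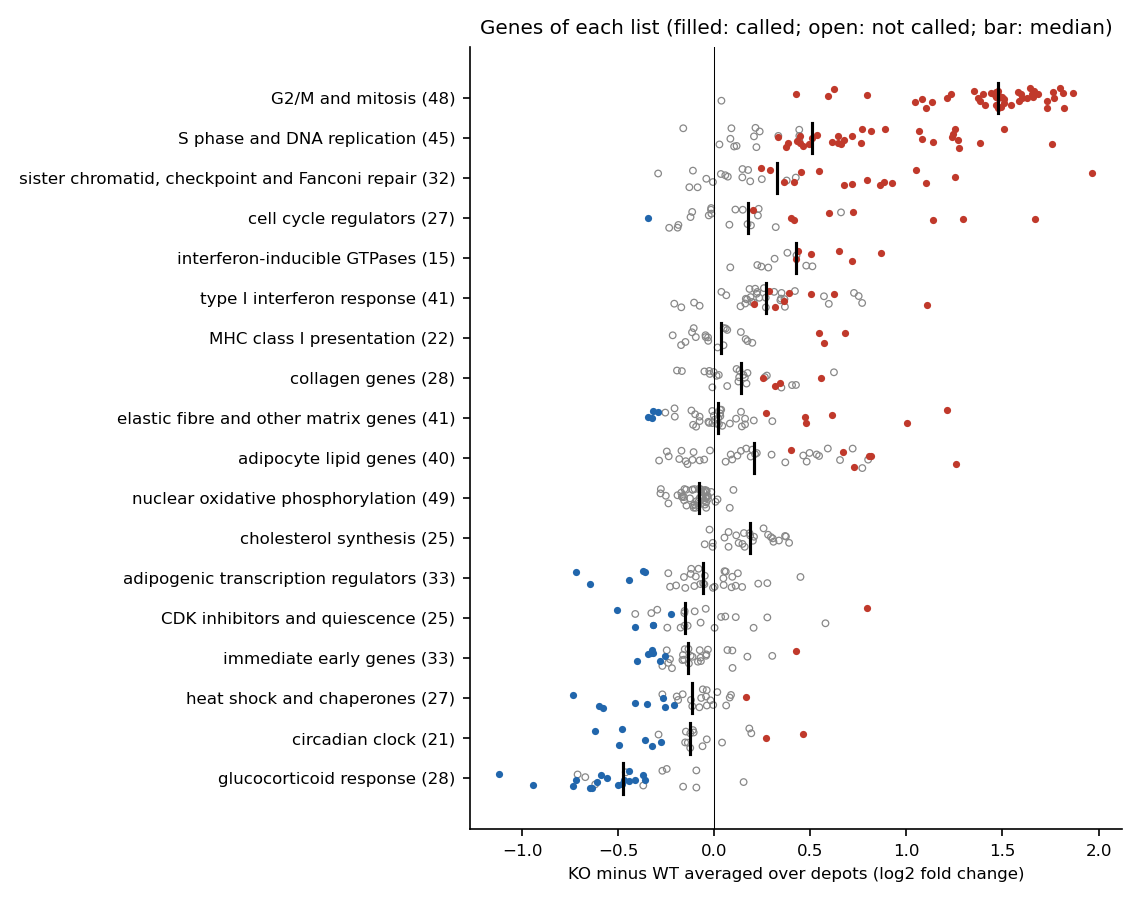
Averaged log2 KO effect of each tested gene (points) in the gene lists (rows), with filled points for called genes and a bar at the median of the list. The G2/M list lies almost whole on the higher side (median 1.48) and the glucocorticoid list on the lower side (median -0.47).

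CDK inhibitors and quiescence genes showed 1 rise and 5 falls among 25 members (median -0.15), or 24% called against 6.82% of all tested genes. The rise was Cdkn2c, the INK4 inhibitor p18: 12.8 to 14.9 (WT) against 19.7 to 23.3 (KO) CPM in SAT, and 12.7 to 14.3 (WT) against 23 to 28.4 (KO) CPM in VAT, or 0.80 ± 0.07 (edgeR adjusted p = 5.1e-07). KO and WT did not overlap in either depot. The falls included Foxo3 (-0.32 ± 0.06) and Foxo1 (-0.32 ± 0.07), forkhead factors active in resting cells, and Txnip (-0.51 ± 0.13), an inhibitor of glucose uptake. Leaving out KO SAT replicate 3 or WT VAT replicate 3 left 2 falls, and leaving out KO SAT replicate 2, KO VAT replicates 2 or 3, or WT VAT replicates 1 or 2 left 3. Over SAT libraries alone 2 of 24 tested members rose and 0 fell, and over VAT libraries alone 1 rose and 2 fell. Txnip lost its call without KO SAT replicates 2 or 3, KO VAT replicate 3, WT SAT replicate 2, or WT VAT replicates 2 or 3 (adjusted p up to 0.0607). The classic inhibitors were not called: Cdkn1a, p21, gave -0.30 ± 0.11 (adjusted p = 0.108), Cdkn1b, p27, 0.04 ± 0.06 (adjusted p = 0.801) and Cdkn1c, p57, -0.33 ± 0.10 (adjusted p = 0.0662). Of 24 p53 target genes 2 rose (Ckap2 and Gtse1, which also act in mitosis) and 2 fell (Ddit4 and Sesn1). Sesn1 lost its call without KO SAT replicate 3 or any 1 of the VAT libraries (adjusted p up to 0.0729).

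Most genes of the glucocorticoid response list fell. Of 28 tested members 17 fell and 0 rose, against 2.87% of all genes lower. In both depots 10 were separated downward, against 1.24% of all genes, and the median was -0.47 (-0.55 in SAT, -0.42 in VAT). Of the 28, 27 had the same sign in both depots. Tsc22d3, the leucine zipper protein GILZ that carries anti-inflammatory actions of the hormone, measured 305, 285, 546 and 364 CPM in WT SAT and 154, 149, 164 and 100 in KO SAT. In VAT it measured 295, 288, 388 and 369 CPM in WT and 198, 198, 198 and 157 in KO. All KO libraries lay below all WT libraries, and the averaged change was -1.12 ± 0.15 (edgeR adjusted p = 7.82e-05).

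Klf15, a glucocorticoid-induced factor of adipocyte metabolism, measured 28.6 to 34.7 (WT) against 14.9 to 19.6 (KO) CPM in SAT, and 37.6 to 46.5 (WT) against 25.1 to 29.6 (KO) CPM in VAT, and fell by 0.72 ± 0.07. Hsd11b1, the enzyme that regenerates active glucocorticoid inside cells, fell by 0.73 ± 0.12, Ddit4, an inhibitor of mTORC1, by 0.94 ± 0.18, and Sgk1, a hormone-induced kinase, by 0.56 ± 0.11. The metallothioneins Mt1 and Mt2 fell by 0.59 ± 0.14 and 0.64 ± 0.16, and Per1 and Klf9, which the hormone also induces, by 0.36 ± 0.08 and 0.45 ± 0.11. The glucocorticoid receptor Nr3c1 was not called (0.15 ± 0.06, adjusted p = 0.144), nor was its cochaperone Fkbp5 (-0.37 ± 0.11, adjusted p = 0.0622).

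WT SAT replicate 3 was the highest SAT library for Tsc22d3, Klf15, Klf9, Ddit4, Hsd11b1, Cebpd, Mt1 and Mt2. Without it 18 members fell and the median stayed at -0.47, and 15 to 18 fell in the fits leaving out 1 library. Over SAT libraries alone 11 fell and over VAT libraries alone 6.

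**Figure D4:**
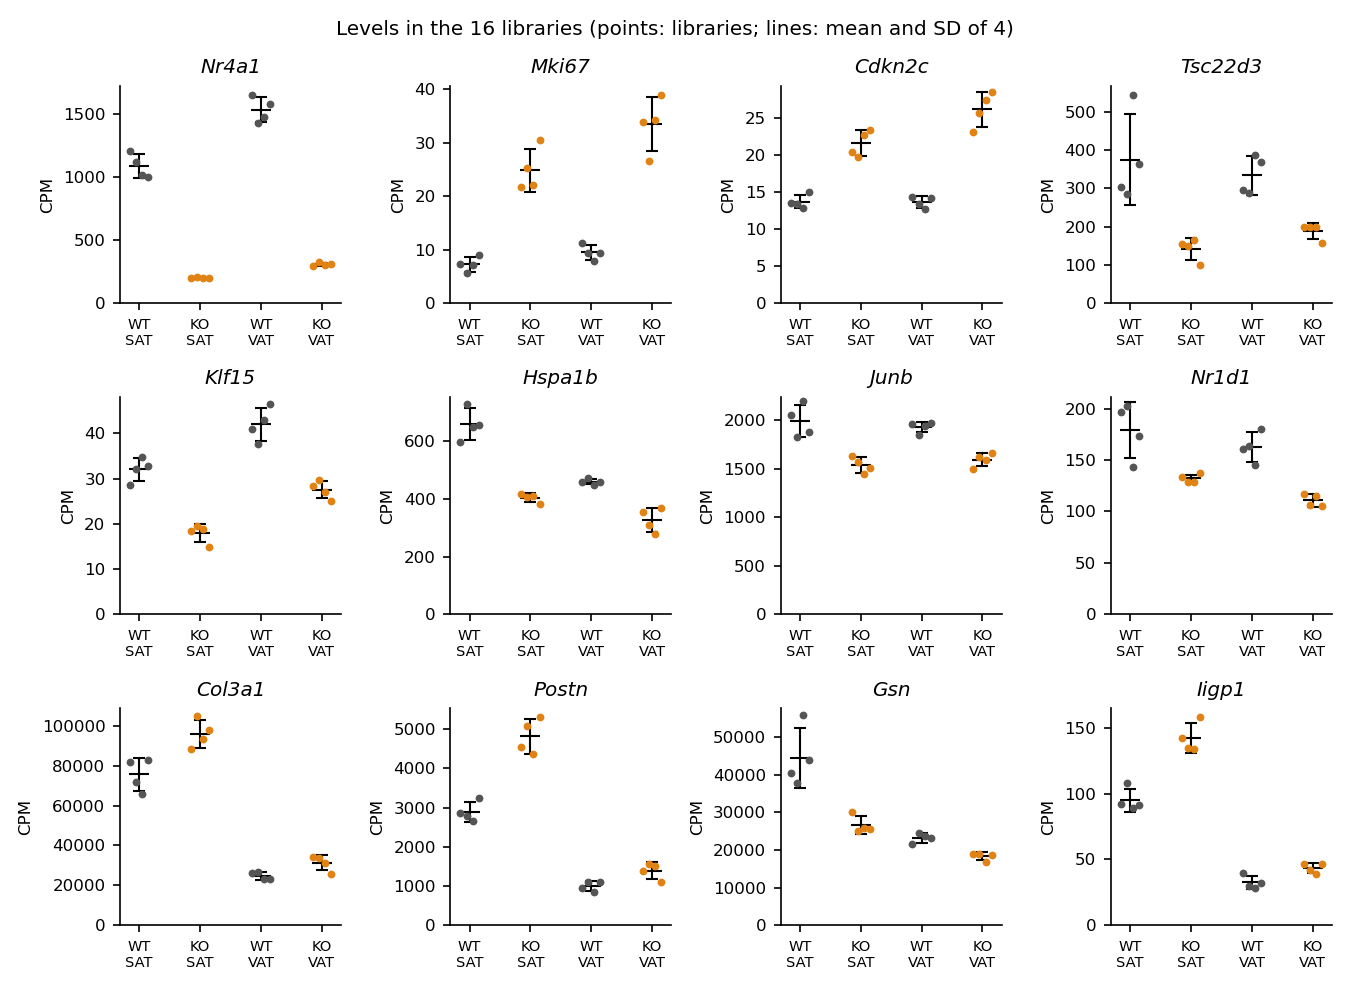
CPM of 12 genes in each library, by depot and genotype, with the mean and SD of each group of 4; each panel has its own y axis. Mki67 and Cdkn2c lie higher in KO in both depots, and Tsc22d3, Klf15 and Hspa1b lower, without overlap of the groups.

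Heat shock and immediate early genes fell in part. Of 27 heat shock and chaperone genes 8 fell and 1 rose, or 33.3% called against 6.82% of all tested genes. The median was -0.11, with 5 falls over SAT libraries alone and 3 over VAT libraries alone. Hspa1b, inducible Hsp70, measured 597 to 732 (WT) against 384 to 418 (KO) CPM in SAT, and 450 to 473 (WT) against 278 to 368 (KO) CPM in VAT, without overlap, and fell by 0.60 ± 0.07 (edgeR adjusted p = 9.24e-06). Its near-identical copy Hspa1a gave -0.58 ± 0.07, and how reads were split between the copies is uncertain. The small heat shock protein Hspb1 fell by 0.73 ± 0.10, and the Hsp110 chaperone Hsph1 by 0.35 ± 0.06, while Dnaja1, an Hsp40 cochaperone, rose by 0.16 ± 0.04. Dnaja1 lost its call without KO SAT replicate 1, KO VAT replicate 1 or WT VAT replicate 3 (adjusted p up to 0.0558). In the unfolded protein and ATF4 response list 2 of 29 genes fell and 0 rose (median -0.02). That share, 6.9%, was near the 6.82% of all tested genes. Without KO SAT replicate 2, KO VAT replicate 4 or WT SAT replicate 3, 1 rose.

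Of 33 immediate early genes, which dissociation of tissue also induces, 7 fell and 1 rose, where 2.87% and 3.94% of all genes did, with a median of -0.13. Over SAT libraries alone 1 fell and over VAT libraries alone 4. Junb, an AP-1 subunit, measured 1830 to 2200 (WT) against 1440 to 1630 (KO) CPM in SAT, and 1850 to 1970 (WT) against 1500 to 1660 (KO) CPM in VAT, and fell by 0.33 ± 0.05 (edgeR adjusted p = 0.000937). Jund (-0.40 ± 0.08), Jun (-0.26 ± 0.06) and Zfp36 (-0.33 ± 0.07), which destabilises cytokine mRNAs, fell as well. Egr2, a zinc finger factor, rose by 0.43 ± 0.10. The immediate early factors Fos and Egr1 were not called: Fos gave -0.16 ± 0.06 (adjusted p = 0.157) and Egr1 -0.13 ± 0.06 (adjusted p = 0.241).

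Of 21 circadian clock genes 6 fell and 2 rose (median -0.13), or 38.1% called against 6.82% of all tested genes. Nr1d1, the clock repressor REV-ERB alpha, measured 143 to 203 (WT) against 129 to 137 (KO) CPM in SAT, and 145 to 180 (WT) against 105 to 117 (KO) CPM in VAT, and fell by 0.50 ± 0.07 (edgeR adjusted p = 0.000106). It overlaps Thra on the opposite strand, and the library kit does not mark strand, so that reads of the pair cannot be told apart. Dbp, an output factor of the clock, fell by 0.62 ± 0.09 (it overlaps Sphk2), and the repressors Per1 and Per2 by 0.36 ± 0.08 and 0.48 ± 0.12. Cry1, another repressor, rose by 0.27 ± 0.07, a call lost without KO SAT replicate 1, KO VAT replicates 1 or 2, WT SAT replicate 1, or WT VAT replicates 2 or 4 (adjusted p up to 0.058). Arntl, the activator BMAL1, was called on average (0.46 ± 0.13) but not shared: 0.90 in SAT and 0.03 in VAT (interaction adjusted p = 0.0204). Its averaged call was lost without any 1 of the SAT libraries (adjusted p up to 0.0835).

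Of 28 collagen genes 4 rose and 0 fell (median 0.14), or 14.3% called against 6.82% of all tested genes. Among the 4 were 3 abundant fibrillar collagens. Col3a1, a main collagen of loose connective tissue, measured 81900, 71700, 66000 and 83200 CPM in WT SAT and 88400, 105000, 93300 and 98200 in KO SAT. In VAT it measured 26200, 26700, 23100 and 23000 CPM in WT and 34000, 33600, 31400 and 25900 in KO. Groups overlapped in VAT only, and the change was 0.34 ± 0.08 (edgeR adjusted p = 0.0105). Col1a1 (0.31 ± 0.08) and Col1a2 (0.25 ± 0.07), the chains of type I collagen, rose as well. Col1a2 kept its call without KO SAT replicate 1, KO VAT replicate 4 or WT VAT replicate 2 and lost it in the 13 other fits leaving out 1 library (adjusted p up to 0.0914). Col1a1 lost its call without WT VAT replicate 3 (adjusted p = 0.0532). The count of rises fell from 4 to 2 without KO SAT replicate 3, KO VAT replicate 2, or WT VAT replicates 1, 3 or 4.

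Elastic fibre and other matrix genes moved both ways, with 6 rises and 4 falls among 41 (median 0.02). Postn, the matricellular protein periostin, measured 2650 to 3240 (WT) against 4360 to 5320 (KO) CPM in SAT, and 840 to 1100 (WT) against 1090 to 1550 (KO) CPM in VAT, with an overlap in VAT, and rose by 0.61 ± 0.09 (edgeR adjusted p = 0.000232). Fbn2, the fibrillin of developing tissue, rose by 1.21 ± 0.16, and Mfap4, an elastic fibre glycoprotein, also rose (1.25 in SAT, 0.76 in VAT; edgeR adjusted p = 0.000668). Fbln1, a fibulin, fell by 0.32 ± 0.06 and Dcn, the collagen-binding proteoglycan decorin, by 0.29 ± 0.07. Gsn, the actin-severing protein gelsolin, was the most abundant shared protein-coding gene that fell (-0.54 ± 0.09): 37800 to 55900 (WT) against 25100 to 30100 (KO) CPM in SAT, and 21500 to 24600 (WT) against 16700 to 19000 (KO) CPM in VAT.

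Interferon genes rose in part. Of 41 type I interferon response genes 8 rose and 0 fell (median 0.27), and the median was 0.58 in SAT and -0.03 in VAT. Of the 41, 16 had the same sign in both depots, and 5 rose without KO SAT replicate 4 or WT SAT replicate 1. Over SAT libraries alone 22 rose, over VAT libraries alone 0 rose and 2 fell, and by the mean of the depots' effects in the group model 13 rose. Stat2, the interferon signalling factor, measured 66.2 to 87.7 (WT) against 113 to 119 (KO) CPM in SAT, and 41.8 to 49.6 (WT) against 50 to 53.7 (KO) CPM in VAT, and rose by 0.39 ± 0.07 (edgeR adjusted p = 0.00186). Oas2, an antiviral synthetase, rose by 1.11 ± 0.19 but overlapped in VAT. Isg15, a ubiquitin-like interferon product, gave 0.34 ± 0.18 (adjusted p = 0.285).

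Of 15 interferon-inducible GTPases 6 rose and 0 fell (median 0.43). The median was 0.67 in SAT and 0.14 in VAT, 8 rose over SAT libraries alone and 1 over VAT libraries alone, of 14 tested in each, and 10 rose by the group model. Iigp1, which attacks the vacuoles of intracellular parasites, measured 89 to 108 (WT) against 134 to 159 (KO) CPM in SAT, and 28.2 to 39.9 (WT) against 38.7 to 46.9 (KO) CPM in VAT, with an overlap in VAT, and rose by 0.50 ± 0.07 (edgeR adjusted p = 0.00026). Of 22 MHC class I genes 3 rose, among them Nlrc5, the transactivator of class I genes, by 0.55 ± 0.09. Guanylate-binding proteins and H2-Q genes have close copies, and their counts are uncertain. The Stat2 promoter is printed from RefSeq (GRCm38.p6, chr10:128270248-128270497, plus strand, 5′ to 3′) as the candidate interferon gene of smallest p that held the core of the interferon-stimulated element, GAAANNGAA on either strand, here in capitals. Interferon genes of the chromosome kept out of the choice of printed promoters were not searched for this choice.
Stat2: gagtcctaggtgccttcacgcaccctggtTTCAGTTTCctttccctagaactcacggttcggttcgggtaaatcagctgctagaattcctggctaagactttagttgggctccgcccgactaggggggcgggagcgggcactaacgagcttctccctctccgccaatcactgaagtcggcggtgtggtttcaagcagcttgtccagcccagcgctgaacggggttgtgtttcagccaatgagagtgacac
The match begins 221 bases before the start, and 8.57% of all windows held the core. Windows were held for only 30 of the 41 interferon genes (73.2%), under the 80% needed, so no share is given for that list.

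Regulators of fat cell formation fell in part. Of 33 adipogenic transcription regulators 5 fell and 0 rose (median -0.06), or 15.2% called against 6.82% of all tested genes. Those that fell were Klf15, Klf9, Cebpd, Cebpb and Id3, the first 4 of which were also in the glucocorticoid list. Cebpd, an early factor of adipogenesis, measured 463 to 834 (WT) against 311 to 374 (KO) CPM in SAT, and 564 to 612 (WT) against 374 to 433 (KO) CPM in VAT, and fell by 0.65 ± 0.10 (edgeR adjusted p = 0.000288). Cebpb lost its call without any 1 of the KO SAT libraries or WT SAT replicate 1 (adjusted p up to 0.0642). Pparg, the master regulator of adipocytes, was not called (0.12 ± 0.11, adjusted p = 0.595).

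Among 47 genes of Wnt, TGF-beta and BMP signalling 1 rose and 4 fell (median -0.04), or 10.6% called against 6.82% of all tested genes. The falls became 2 without KO SAT replicate 4, KO VAT replicate 3, WT SAT replicates 1 or 2, or WT VAT replicates 1 or 3. Inhbb, the activin B subunit, measured 2.3 to 2.95 (WT) against 0.984 to 1.77 (KO) CPM in SAT, and 42.4 to 62.5 (WT) against 25.2 to 33.3 (KO) CPM in VAT, and fell by 0.89 ± 0.10 (edgeR adjusted p = 1.76e-05). Its level differed widely between depots, while its change was alike (-0.82 in SAT, -0.94 in VAT). Wnt11, a non-canonical Wnt ligand, fell by 0.47 ± 0.09. The rise became 0 without KO SAT replicate 4, WT SAT replicates 2 or 4, or WT VAT replicates 3 or 4. Among 42 growth factor signalling genes 2 rose and 1 fell (median -0.06), and 3 fell without WT SAT replicate 3. The share called in the main fit, 7.14%, was near the 6.82% of all tested genes.

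Calls were unevenly spread over the lists named for progenitor subtypes. They made up 36.8% of F3-type, 13.8% of Icam1-type, 17.4% of surface and identity and 3.33% of Dpp4-type genes, against 6.82% of all tested genes. Of 19 genes of the F3-type regulators, a progenitor subset that restrains adipogenesis, 6 fell and 1 rose (median -0.14). Gdf10, a BMP-family ligand, measured 599 to 715 (WT) against 351 to 477 (KO) CPM in SAT, and 802 to 1020 (WT) against 498 to 737 (KO) CPM in VAT, and fell by 0.53 ± 0.09 (edgeR adjusted p = 0.000907). The rise was H19, an imprinted long non-coding RNA: 19.9 to 38.6 (WT) against 70.2 to 107 (KO) CPM in SAT, and 5.38 to 7.9 (WT) against 9.94 to 27.3 (KO) CPM in VAT, or 1.49 ± 0.19. Of 30 Dpp4-type interstitial genes 1 rose (median 0.02; 3 without KO VAT replicate 4 and 2 without WT SAT replicate 3), of 29 Icam1-type preadipocyte genes 4 fell (median -0.06), and of 23 surface and identity genes 3 rose and 1 fell (median 0.05). Those 3 rises became 0 without WT VAT replicate 3 and 1 without KO SAT replicates 2, 3 or 4, KO VAT replicates 1 or 3, WT SAT replicate 1, or WT VAT replicates 1 or 4, and the fall became 2 without KO VAT replicates 1 or 2, WT SAT replicates 1 or 3, or WT VAT replicate 2.

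In several lists the median effects of the depots had opposite signs. Of 49 nuclear oxidative phosphorylation genes 0 rose and 0 fell by the quasi-likelihood test, 1 was under an unadjusted p of 0.05, 1 rose without WT SAT replicate 3, and 8 had the same sign in both depots: the median was -0.24 in SAT and 0.08 in VAT. Over SAT libraries alone 0 of them rose and 0 fell, and the same held over VAT libraries alone. Of 40 adipocyte lipid genes 6 rose (3 without WT VAT replicates 1, 3 or 4), 4 of them shared, and the median was -0.08 in SAT and 0.50 in VAT. DESeq2 called 10 higher, limma-voom 11 and the group model 12, and 0 rose over SAT libraries alone against 19 over VAT libraries alone. Acsl1, a fatty acid activating enzyme, differed between depots (interaction 1.08 ± 0.21, adjusted p = 0.0403), and lost its averaged call without the same libraries (adjusted p up to 0.0554). The summed mature adipocyte markers moved with these lipid genes: 62.9 to 76.6 (WT) against 130 to 222 (KO) CPM in VAT, but 64.8 to 94.8 in WT SAT and 66.5 to 96.5 in KO SAT. Their part in the lipid gene values was not tested.

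Other lists held few or no calls. Calls made up 12.9% of the glycolysis, 13.5% of the cytokine and 5.56% of the thermogenic list, against 6.82% of all tested genes. Of 31 glycolysis and hypoxia targets 4 fell (median -0.06), and 1 or 2 without any 1 of the KO SAT libraries, KO VAT replicates 1 or 2, WT SAT replicates 2 or 4, or WT VAT replicates 3 or 4. Of 37 cytokine, chemokine and NF-kB genes 2 rose and 3 fell (median 0.00), and 1 fell without KO SAT replicates 3 or 4, KO VAT replicate 1, WT SAT replicate 4 or WT VAT replicate 4. Of 18 thermogenic genes 1 rose (median -0.05), and 2 by DESeq2, by limma-voom or without KO SAT replicate 2, KO VAT replicate 4, or WT SAT replicates 2 or 3. Of 25 cholesterol synthesis genes edgeR called 0 (median 0.18), with 8 under an unadjusted p of 0.05. DESeq2 and the group model called 2 of them higher, limma-voom 1, and edgeR 1 to 3 without KO SAT replicates 2 or 3, KO VAT replicate 4, or WT SAT replicates 2, 3 or 4. Of 7 mitochondrially encoded genes edgeR called 0 (median 0.19), with 4 under that p. DESeq2 called 1 of these higher, limma-voom 0, and edgeR 1 with upper-quartile scaling, 2 without WT SAT replicate 2 and 1 without WT SAT replicate 3.

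Pooling the depots added genes that neither depot's own contrast called. Of the 1148 called genes 373 (32.5%) were called in neither depot's own contrast, 198 higher and 175 lower, with a median absolute log2 change of 0.349. The median SE was 0.104 for the average and 0.140 and 0.139 for SAT and VAT, and 626 other genes were called in a depot and not on average. Marcks, an actin-linked substrate of protein kinase C, measured 746 to 1120 (WT) against 954 to 1340 (KO) CPM in SAT, and 225 to 289 (WT) against 305 to 431 (KO) CPM in VAT. Its averaged change was 0.48 ± 0.10 (edgeR adjusted p = 0.00619), with 0.44 in SAT and 0.51 in VAT. Socs3, the feedback inhibitor of cytokine signalling, measured 1620 to 1910 (WT) against 1310 to 1570 (KO) CPM in SAT, and 1470 to 1590 (WT) against 1120 to 1360 (KO) CPM in VAT, and fell by 0.29 ± 0.06 (edgeR adjusted p = 0.00753).

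**Figure D5:**
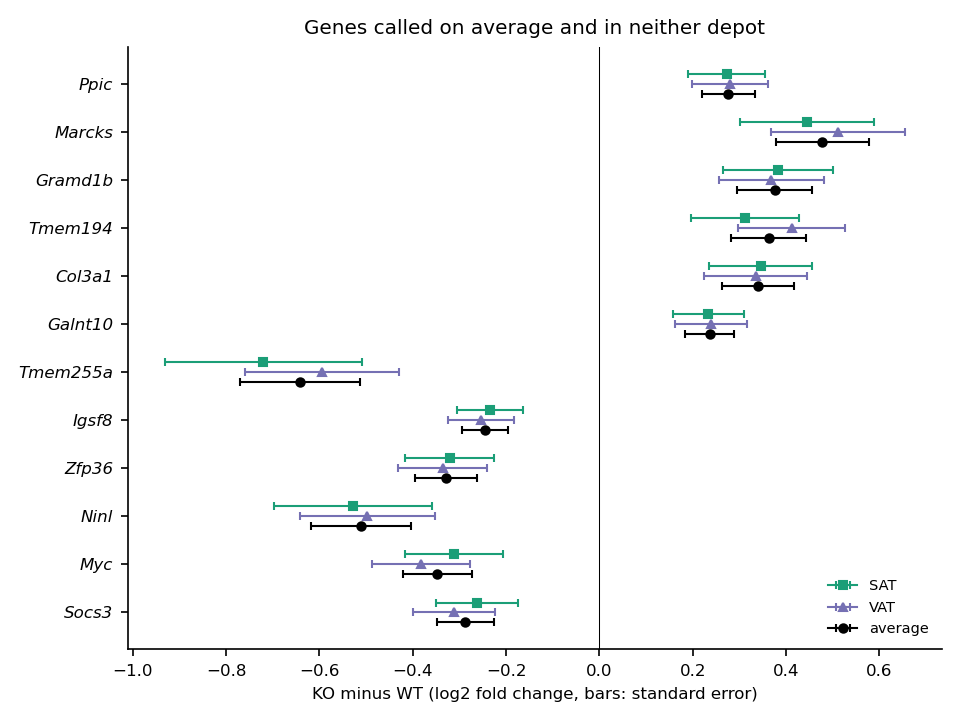
Log2 KO effect with its SE in SAT, in VAT and on average for 12 genes called on average and in neither depot's own contrast. Only shared genes, with the same sign in both depots and no interaction call, were eligible, so the choice itself favours depot estimates that lie close together. The average rests on more libraries than either depot's estimate. The median SE over all tested genes was 0.104 for the average, 0.140 for SAT and 0.139 for VAT.

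Markers of other cells differed widely in level. Those of pericytes and smooth muscle summed to 2940 to 4930 (WT) against 2350 to 3250 (KO) CPM in SAT, and 5840 to 6330 (WT) against 5430 to 6950 (KO) CPM in VAT. Those of mesothelium summed to 807 to 1550 (WT) against 807 to 1530 (KO) CPM in VAT, and to at most 12.2 CPM in SAT. Endothelial markers summed to 209 to 236 (WT) against 233 to 312 (KO) CPM in SAT, and 128 to 137 (WT) against 99.6 to 118 (KO) CPM in VAT, so that the genotypes did not overlap in VAT. Of 13 macrophage and myeloid markers 1 was called higher (Cd68, 0.44; the call was kept without KO SAT replicate 3, KO VAT replicate 2 or WT SAT replicates 2 or 3 and lost in the 12 other such fits, adjusted p up to 0.0904), and their sum was 27.4 to 41.6 (WT) against 32.7 to 42.5 (KO) CPM in SAT, and 43.9 to 71.2 (WT) against 37.7 to 68.5 (KO) CPM in VAT. Mpeg1, a pore-forming protein of macrophages, rose in both depots (1.13 in SAT, 1.26 in VAT; edgeR adjusted p = 0.000458), from 4.13 to 8.45 CPM in WT SAT and 2.55 to 6.24 in WT VAT to 11.8 to 16.6 and 8.38 to 12 in KO. Of 7 tested lymphocyte markers 1 rose (Igj, the immunoglobulin joining chain, 2.18 ± 0.49). The 11 listed lymphocyte markers summed to 4.98 to 10.4 (WT) against 10.6 to 29.2 (KO) CPM in VAT and, with an overlap, to 2.84 to 5.68 (WT) against 3.7 to 5.85 (KO) CPM in SAT. Of 8 Schwann cell markers 1 fell, and their sum was 425 to 772 (WT) against 373 to 507 (KO) CPM in SAT, and 56.4 to 75 (WT) against 40.2 to 58.7 (KO) CPM in VAT. No marker of endothelium, mesothelium, pericytes and smooth muscle, epithelium, skeletal muscle or red cells was called by edgeR, with 2 endothelial, 1 pericyte and 1 epithelial marker under an unadjusted p of 0.05. Of the epithelial markers 1 was called lower by limma-voom and, in edgeR, without KO SAT replicate 2 or KO VAT replicate 4. No listed marker in the count table, whether or not it passed the filter, was at 0 in all libraries. The mean of 2 lymphocyte markers and 1 red cell marker was below 0.1 CPM. The part of these cells in other genes was not tested.

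Genes near Nr4a1 were counted apart. Within 10 Mb of it 18 of 169 tested genes were called (10.7%; 7 higher and 11 lower), itself included, and 1130 of 16673 elsewhere (6.78%), a difference that was not tested. Among protein-coding genes of at least 5 CPM the smallest p after that of Nr4a1 was that of Mettl7a1, a methyltransferase-like protein at chr15:100304140-100328662, which fell by 0.88 ± 0.05 (edgeR adjusted p = 4.48e-09). It measured 46.4 to 48.4 (WT) against 22.3 to 26.5 (KO) CPM in SAT, and 61.3 to 71.1 (WT) against 35.2 to 39.6 (KO) CPM in VAT, without overlap. DNA from the donor strain can flank a targeted allele, and linked strain differences cannot be told apart from the effect of the allele here. Nnt, a mitochondrial transhydrogenase that the C57BL/6J strain carries in a deleted form, lies elsewhere and fell by 0.60 ± 0.10 (adjusted p = 0.00108). Both genotypes carry that strain label, although the level was higher in WT. It measured 52.9 to 64.4 (WT) against 34.3 to 52.6 (KO) CPM in SAT, and 88.2 to 95.2 (WT) against 44.7 to 67.6 (KO) CPM in VAT.

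The NBRE, AAAGGTCA on either strand, was in 0 of 40 G2/M windows, 0 of 36 S phase windows and 1.46% of all RefSeq windows. Windows were held for 845 of the 1135 shared genes (74.4%), under the 80% needed, so that a share over them is void. Shared genes of the chromosome kept out of the choice of printed promoters were again not candidates. The candidate shared genes of smallest p in each direction that held the element are printed from RefSeq (GRCm38.p6, 5′ to 3′, ending before the start) with its reverse in capitals: 1700012B15Rik (chr12:3235541-3235790, plus strand) and Trem2 (chr17:48346151-48346400, plus strand).
1700012B15Rik: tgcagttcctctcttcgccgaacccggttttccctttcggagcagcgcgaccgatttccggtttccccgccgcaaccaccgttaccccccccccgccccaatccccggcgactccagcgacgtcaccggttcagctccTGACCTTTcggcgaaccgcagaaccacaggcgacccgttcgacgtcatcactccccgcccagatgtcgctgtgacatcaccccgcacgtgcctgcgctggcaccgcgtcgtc
Trem2: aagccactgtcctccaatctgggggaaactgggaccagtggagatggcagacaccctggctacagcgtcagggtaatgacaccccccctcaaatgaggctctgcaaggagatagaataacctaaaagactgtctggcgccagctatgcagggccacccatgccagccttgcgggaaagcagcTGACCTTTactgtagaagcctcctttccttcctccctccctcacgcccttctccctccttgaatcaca
1700012B15Rik, an antisense transcript of Rab10, rose by 0.45 ± 0.06 (edgeR adjusted p = 7.17e-05), with the match 112 bases before the start. Reads of the pair cannot be told apart. Trem2, a lipid-sensing receptor known from macrophages, fell by 1.23 ± 0.21 (edgeR adjusted p = 0.00108), with the match 68 bases before the start. It measured 1.67 to 3.8 (WT) against 0.907 to 1.33 (KO) CPM in SAT, and 6.99 to 18.6 (WT) against 4.86 to 8.74 (KO) CPM in VAT, so that the groups overlapped in VAT and not in SAT. No element, whether present or absent in these windows, was tested for binding.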

How the data were processed

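Gene expression was measured by RNA sequencing (NEBNext Ultra libraries, single 75-base reads per the labels' protocols) in 16 libraries. The tools were STAR, FastQC, featureCounts and DESeq with the mm10 build, per the submitters' processing notes, which give neither versions nor settings. The authors deposited raw counts per gene and normalized values that were not used. From the deposited counts, 16842 genes passed filterByExpr of edgeR 4.0.16 (R 4.3.3), were scaled by TMM and tested with robust quasi-likelihood fits of depot + genotype, with Benjamini-Hochberg adjustment over all tested genes and a threshold of 0.05. A model with 1 coefficient per group gave the effect in each depot and the interaction. SE is the log2 change over the square root of F. On simulated counts with the additive design (16607 genes), 96% of genes changed by 1 on the log2 scale and 75% of those changed by 0.5 were recovered. Changed genes had a mean of at least 1 CPM, and the simulation held no outlying library and no depot difference in the KO effect. Recovery of rarer genes was not measured. The false share of calls was 6.04%. Alternatives included DESeq2 1.42.0 and limma 3.58.1. Figures were drawn with matplotlib 3.10.9.

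Groups came from the labels. Genes and lists were chosen with earlier results of these data known. Named were the NR4A genes and Nnt, the 10 largest changes in each direction and the 10 largest rises outside cell cycle lists (shared protein-coding genes, at least 5 CPM, no overlap in either depot), the genes of smallest p called on average only, the 5 most abundant per direction, and up to 4 genes of smallest p per list, with further members given as values. Mettl7a1 was named after its values were seen. Some items that the rule names are not reported here. Same-numbered libraries were checked for shared deviations: in no pair of groups did all 4 numbers correlate above 0.1, so numbers were not used to pair samples. Of 38720 names, 35628 matched the annotation directly, 1764 through synonyms and 1328 not at all; 27 were turned into dates before deposit.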

Additional observations from a re-analysis of the deposited data

Results flagged for a closer look

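In groups of 4 libraries, 1 library lay far from the 3 others in 26 of 440 groups over the named genes, by Dixon's test of the gap over the range, where chance gives about 5%, or 22. WT SAT replicate 3 held 6 of them. WT SAT replicate 3 stood apart for Nr4a3 at 77.3 CPM (others 121 to 124), Galnt15 at 299 CPM (others 240 to 245), Klf9 at 640 CPM (others 358 to 395), Per2 at 22.8 CPM (others 42.3 to 43.6), Marcks at 1120 CPM (others 746 to 769) and Nnt at 52.9 CPM (others 63.4 to 64.4). KO VAT replicate 4 lay away from its group for Tsc22d3 at 157 CPM (others 198), Nr3c1 at 162 CPM (others 179 to 182), Arntl at 13.9 CPM (others 18.7 to 19.1), Trem2 at 8.74 CPM (others 4.86 to 5.47) and Nrk at 10.5 CPM (others 12.6 to 13). KO SAT replicate 1 differed from the others for Cdkn1b at 112 CPM (others 122 to 123) and Gsn at 30100 CPM (others 25100 to 25900). KO VAT replicate 3 stood apart for Egr1 at 2100 CPM (others 2180 to 2190) and Gsn at 16700 CPM (others 18700 to 19000). WT VAT replicate 1 lay away from its group for Dcn at 9350 CPM (others 9900 to 9960) and Hsph1 at 69.5 CPM (others 60.3 to 61.6). KO SAT replicate 2 differed from the others for Mfap4 at 149 CPM (others 69.6 to 77.3). KO SAT replicate 3 stood apart for Cebpb at 137 CPM (others 147 to 148). KO SAT replicate 4 lay away from its group for Prc1 at 22.7 CPM (others 16.7 to 17.2). KO VAT replicate 1 differed from the others for Cdk1 at 11 CPM (others 14.7 to 15). WT SAT replicate 1 stood apart for Gdf10 at 715 CPM (others 599 to 610). WT SAT replicate 4 lay away from its group for Ckap2 at 3.84 CPM (others 2.37 to 2.44). WT VAT replicate 2 differed from the others for Oas2 at 4.77 CPM (others 6.94 to 7.22). WT VAT replicate 3 stood apart for Jun at 2980 CPM (others 2880 to 2890). WT VAT replicate 4 lay away from its group for Nrk at 3.87 CPM (others 7.32 to 7.76).

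The KO effect differed between the depots, by the interaction test of edgeR, in a pair of the named genes. Arntl had an effect in VAT minus that in SAT of -0.877 ± 0.145 on the log2 scale (adjusted p = 0.0204). Acsl1 had an effect in VAT minus that in SAT of 1.08 ± 0.21 on the log2 scale (adjusted p = 0.0403).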

How the results depend on the processing

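Among the 99 called genes named, none changed direction under any alternative run that tested them, and 88 kept their call in all fits leaving out 1 library. Calls were kept by 90 under all other tools, filters and scalings and without both libraries below, and by 81 in all fits with the replicate number. A run that did not test a gene was not counted as a loss. This applies to genes under 5 CPM at that filter, and to genes near Nr4a1 in a run without them. The 664 higher and 484 lower genes became 514 to 749 and 335 to 639 when 1 library was left out, and 803 and 776 without both WT SAT replicate 3 and KO VAT replicate 4. DESeq2 called 953 and 766, and a filter at 5 CPM 433 and 331. SAT libraries alone gave 359 and 141, VAT libraries alone 499 and 192, and a test against a fold change of 1.2 gave 256 and 73. The 45 interaction calls became 563 with DESeq2, 36 of them shared genes of the report, and 7 to 147 when 1 library was left out. The cause of these shifts was not tested, other than fewer samples or genes where they were left out.

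With the replicate number as a block 586 genes were higher and 399 lower. Summing the depots of each number gave 637 and 348, and a correlation within numbers 731 and 487. In the summed block 29 of the 41 interferon genes and 11 of the 15 GTPases were called higher, in place of 8 and 6. The named genes whose calls were lost in such a fit were Col1a1, Col1a2, Dcn, Fancd2, Txnip, Sesn1, Sgk1, Mt2, Dnaja1, Jun, Cry1, Arntl, Wnt11, Socs3, Cd68, Igj, Serping1 and Peg3 (adjusted p up to 0.159, for Igj). The labels do not say that a number marks 1 animal, and the numbers were not taken to pair the samples, since not every pair correlated above 0.1 (consensus correlation 0.0189). Same-numbered WT SAT and WT VAT libraries correlated above 0.1 in 3 of 4 pairs, and in KO SAT with KO VAT 3 of 4 libraries correlated best with their own number.

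Uncalled genes changed sign as follows. Over SAT libraries alone Nr4a2 was -0.122, Nr4a3 -0.115, Pttg1 -0.0135 and Pparg -0.182. Leaving out 1 library gave Nr4a3 -0.00243 (without KO VAT replicate 2) to 0.121 and Cdkn1b -0.00261 (without WT SAT replicate 3) to 0.0644. Cdkn1b was -0.0458 over VAT libraries alone. Depth limits genes of a few CPM: the SE was 0.23 for E2f8 and 0.06 for Nr4a1.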

Other observations

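Outside the gene lists of the report, single genes of other roles rose or fell in both depots. Nrk, a Nik-related kinase, measured 3.38 to 5.35 (WT) against 8.5 to 14.8 (KO) CPM in SAT, and 3.87 to 7.76 (WT) against 10.5 to 13 (KO) CPM in VAT, and rose by 1.16 ± 0.16 (edgeR adjusted p = 0.000125). Frem1, a basement membrane protein, rose by 1.27 ± 0.28, from 4.4 to 11.7 CPM in WT SAT and 0.525 to 3.42 in WT VAT to 13.6 to 21.6 and 4.79 to 9.07 in KO. Gstm1, a glutathione transferase named after its values were seen, measured 284 to 376 (WT) against 207 to 227 (KO) CPM in SAT, and at least 580 (WT) against at most 414 (KO) CPM in VAT. It fell by 0.56 ± 0.06 (edgeR adjusted p = 4e-06), and its close relatives make the split of reads uncertain. Serping1, the inhibitor of complement C1, fell by 0.24 ± 0.05, from 2870 to 3570 CPM in WT SAT and 2170 to 2260 in WT VAT to 2580 to 2750 and 1850 to 1960 in KO. In each of these genes KO and WT did not overlap in either depot, which the rule that named Nrk and Frem1 required. Such separation held upward in 1.72% and downward in 1.24% of all tested genes.

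Gm15446 and Pisd-ps1 were named after their values were seen. Gm15446, a predicted protein-coding gene on chromosome 5, measured 0.0943 to 0.228 (WT) against 7.99 to 8.59 (KO) CPM in SAT, and 0.0198 to 0.0433 (WT) against 6.31 to 7.71 (KO) CPM in VAT. It rose by 6.52 ± 0.22 (edgeR adjusted p = 2.1e-12). Pisd-ps1, a transcribed pseudogene on chromosome 11, measured 47.9 to 61 (WT) against 9.7 to 14 (KO) CPM in SAT, and 41.4 to 56 (WT) against 12.8 to 17.1 (KO) CPM in VAT. Its averaged change was -1.92 ± 0.11 (edgeR adjusted p = 4.48e-09). Neither lies on the chromosome of Nr4a1, and strain background cannot be told apart from genotype for either.

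A list of imprinted growth genes was written after the values of H19 were seen. Of its 17 tested genes 2 rose (H19 and Peg3) and 2 fell (Dcn and Ndn), with a median of 0.26. Peg3 lost its call in 12 of the 16 fits leaving out 1 library (adjusted p up to 0.1) and kept it without KO VAT replicates 3 or 4, or WT VAT replicates 2 or 3.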
